A study of Drosophila melanogaster with 8 samples.

Results

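The het ovaries were the control samples of a Drosophila melanogaster study of Otefin (Ote), a LEM domain protein of the nuclear lamina, and they made up 4 of the 8 ovary arrays examined. They were chosen by their label alone, so every gene described here belongs to the same 4 arrays, named het 1 to het 4 after their replicate numbers. Het 1 and het 2 carried otefinPk and Chk2P30 on a chromosome held over the CyO balancer, and het 3 and het 4 carried otefinPk and Chk2P6 over CyO. All 4 therefore shared 1 mutated copy of otefin and 1 mutated copy of chk2 (lok), with the balancer in all 4 arrays, and none was an unmutated stock. The study's methods differ from the labels in placing the B279G allele of otefin with chk2 P30, and in giving an age of 1 day where the labels give 4 to 6 h after eclosion. Each array read RNA of about 100 pairs of ovaries from virgin females, so it averaged over many animals and over every cell type that came away with the ovary. The remaining 4 arrays, of otefin null ovaries, were not analysed here.

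A fly ovary is a bundle of ovarioles, each a string of egg chambers of increasing age with a germarium at its tip, where germline stem cells divide beside a somatic niche. A stem cell daughter forms a cyst of interconnected germ cells, of which a single cell becomes the oocyte while the others, the nurse cells, fill it with RNA, ribosomes and mitochondria. Somatic follicle cells surround each chamber, contribute yolk, and later secrete the eggshell from the inside out, first the vitelline membrane and then the chorion. Ovarioles are wrapped in a muscle sheath and reached by tracheae, with fat body lying close by. A newly eclosed female may still be assembling the later egg chambers. Which stages these ovaries held was not scored.

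The values were log2 signals of Affymetrix oligonucleotide arrays, summarised per probe set by the authors with RMA (robust multi-array average, which also brings the arrays to a common distribution). Of 18769 probe sets other than spike and control sets, 13647 named a single gene, and the 11982 genes so named are described by their probe set of highest mean. A further 402 probe sets named several genes and 4720 were unnamed here. Naming was poorest among bright probe sets. Of the 100 probe sets of highest het signal, 48 named a single gene, 2 named several and 50 were unnamed, so the ranks below are ranks among named genes. Where a gene had several probe sets they could differ widely. Of 334 genes picked by rule or named in the text, 26 had several. In 22 of these the means lay more than 1 apart, by 6.86 at the most (TpnC73F). The 2 probe sets of p53, for example, had means of 9.77 and 3.53. Probe sets also differ in how well they bind, so the order of signals is not an order of RNA molecules per cell.

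The targeted gene was read first. Ote gave a signal of 9.26 in het 1, 7.27 in het 2, 9.66 in het 3 and 9.29 in het 4 (8.87 ± 1.08, SD, n = 4). Het 2 was lower than the others by more than the range among them. lok, which encodes the checkpoint kinase Chk2, gave 11.41, 11.13, 11.47 and 11.42 in the same order, again with het 2 lowest. The array medians lay between 5.61 and 5.72, and Pearson's r between arrays over all probe sets ran from 0.963 (het 2 with het 3) to 0.987 (het 1 with het 4). Het 2 held the lowest of the 4 values for 36.1% of named genes and the highest for 36.7%, and het 3 for 32.4% and 29.9%, so these 2 arrays lay at the edges more often than het 1 (14.0% and 14.8%) and het 4 (17.5% and 18.6%). Besides its low Ote, 2 facts about single arrays touch the results below. Larval salivary glue RNAs were far higher in het 1 than in the others and male accessory gland RNAs in het 3, although the labels give virgin female ovaries for both.

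To place a floor under the signals, genes that an ovary was not taken to use served as a yardstick: 165 odorant, gustatory and ionotropic receptor genes and 7 genes of the Y chromosome, which females lack. Their median het mean was 3.71, and the 95th percentile of their means, 5.06, was taken as the near-background level. All 7 Y genes lay between 2.75 and 4.13. Of the 165 receptors, 9 lay above the level, led by Or43b, whose signals were 8.19, 7.73, 8.22 and 8.29. A mean at or below 5.06 was found for 3623 of 11982 genes (30.2%), the closest inside being CG9649 (5.06) and the closest outside lncRNA:CR44076 (5.06). The median of all named genes was 7.33.

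**Figure D1:**
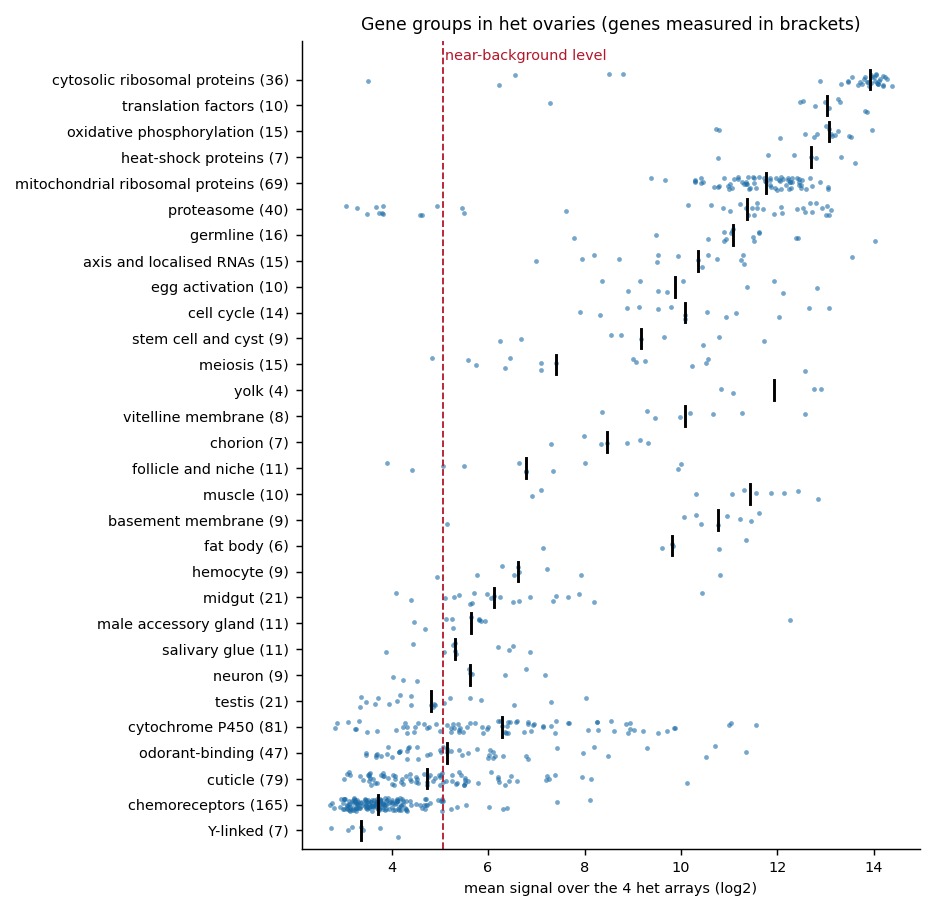
Mean log2 signal over the 4 het arrays (x axis) of the genes of 30 groups (rows). Each point is a gene, each black bar the median of the group, and the dashed line the near-background level of 5.06. Ribosomal protein genes sit at the right edge with a median of 13.91, germline genes all lie to the right of the line, and chemoreceptor and Y-linked genes, which set the line, cluster to its left.

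The highest signals belonged to the machinery of protein synthesis. RpL15, a protein of the large ribosomal subunit, stood first with 14.45, 14.37, 14.32 and 14.37 (14.38 ± 0.05, SD, n = 4), followed by RpL41 at 14.27 and RpL36A at 14.23. Of the 25 highest named genes 19 encoded cytosolic ribosomal proteins, and their means lay between 13.89 and 14.38. The other 6 were tsr, me31B, fabp, sesB, Nph and eEF1delta. tsr (twinstar) encodes the actin-severing protein cofilin and gave 14.08, 14.17, 14.00 and 14.08. me31B encodes an RNA helicase that holds maternal messages in a repressed state, and its signals were 14.02, 14.05, 13.94 and 14.09. sesB, the mitochondrial carrier that exchanges ADP for ATP, had a mean of 13.97, and Nph, a nucleophosmin-type histone chaperone, one of 13.92. In this top group the 4 arrays nearly coincided, with SDs from 0.02 to 0.12, whereas the rank order among neighbours was not resolved. RpL37A, the last of the 25, had a mean of 13.89 ± 0.04 (SD, n = 4) and RpS12, next in line, one of 13.87, a gap within their spread.

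**Figure D2:**
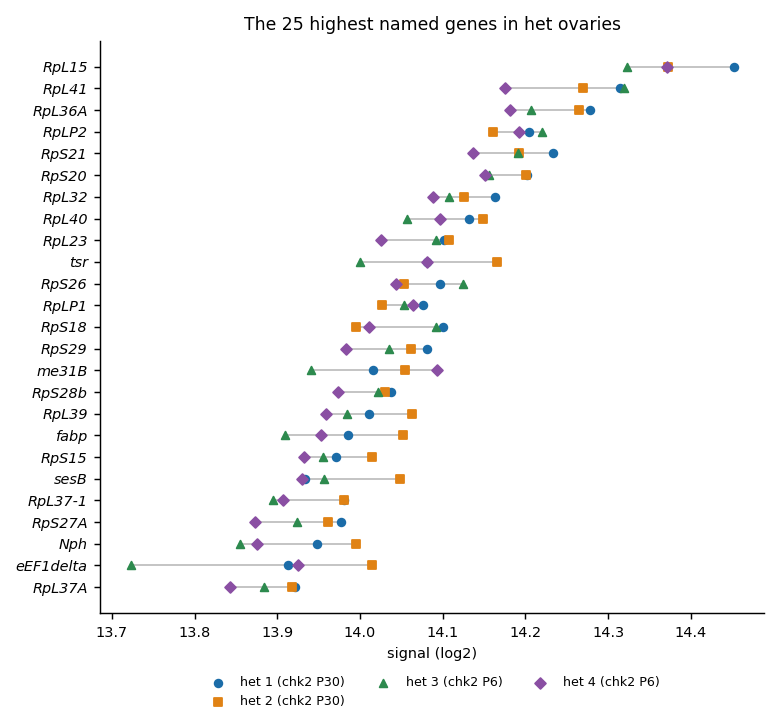
Log2 signal (x axis) of the 25 highest named genes (rows, highest mean at the top) in each het array (coloured symbols). Grey bars span the 4 arrays, which lie close together for every gene on this expanded axis that does not start at 0. 19 of the 25 are ribosomal protein genes.

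Widened to the 100 highest named genes, which ended with Fkbp39 at 13.16 just ahead of Grx3, also at 13.16, the list held 30 of the 36 cytosolic ribosomal protein genes that could be named. Of the 6 that fell outside, RpL10Aa, RpL37-2, RpS28a, RpS10a and RpS19b are second copies of ribosomal protein genes and gave means of 3.50, 6.56, 6.23, 8.50 and 8.79, of which that of RpL10Aa was near background. The other was RpL34a, at 12.88. Their partner copies RpL10Ab, RpL37-1 and RpS28b were all among the 100 highest, and so was RpS5b, a copy known for its use in the ovary, at 13.62, 13.17, 13.80 and 13.63. RpS19b, another copy known from the germline, lay well below them in every array at 8.96, 9.26, 8.13 and 8.82.

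Translation factors accompanied the ribosomal proteins. All 10 measured members of the list used lay above background with a median of 13.03. Of these, 4 (eIF1, eEF5, eIF4B and eIF4A) were among the 100 highest. eEF1delta and eRF1, which were not on that list, were among the 100 highest as well. The exception in level was eEF1alpha2, the second copy of an elongation factor, with a mean of 7.29. Mitochondrial ATP production was likewise near the top. The 15 genes measured from the oxidative phosphorylation list, which also held porin and Vha16-1, had a median of 13.06. They were led by sesB and ATPsynC (13.53 ± 0.19, SD, n = 4), and 5 were among the 100 highest. That list was not complete. ATPsynD, ATPsynF, COX7C, UQCR-14, UQCR-6.4, ND-MLRQ and ND-ACP were not on it and were among the 100 highest as well. All 69 mitochondrial ribosomal protein genes were above background, from mRpL48 at 9.38 to mRpS7 at 13.05.

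The proteasome genes split by copy. Of 40 measured, 29 were above background, and Prosalpha2, Prosbeta3 and Prosbeta2, subunits of the core particle, led with means of 13.11, 13.07 and 13.04. All 11 at or near background carry the suffix T or R that marks second copies known from the testis, such as Prosalpha6T at 3.50 and Prosalpha3T at 3.06. Of 14 heat-shock and cognate chaperone genes sought, only 7 were measured. All 7 were above background, with means from 10.76 (Hsp68) to 13.60 (Hsc70-3). Hsp26, a small heat-shock protein abundant in nurse cells, gave 13.12, 11.89, 13.27 and 12.89. Het 2 was the lowest array for 6 of these 7 genes, against 36.1% of all named genes.

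Other genes among the 100 highest that belong to none of these groups included dhd (deadhead), a thioredoxin made only in the female germline and needed to remodel sperm chromatin, at 13.73, 13.65, 13.64 and 13.53. dhd, Nlp and Sumo were named after their values were seen. Nlp, another nucleoplasmin-type chaperone of the egg, had a mean of 13.81. Sumo, the small ubiquitin-like modifier, had one of 13.73. His2Av, the variant histone H2A, gave 13.41, 13.44, 13.14 and 13.45. Over all 100 genes the SD ran from 0.02 to 0.34 with a median of 0.09, and 58 of them varied by an SD under 0.1. The median SD of all named genes was 0.28.

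Germline genes were above background without exception. All 16 that were measured passed the level, with a median of 11.07 against 7.33 over all named genes. After me31B came orb, the oocyte translation regulator, with 12.56, 12.02, 12.68 and 12.46, and armi, a helicase of the piRNA pathway, with 12.25, 12.30, 12.33 and 12.69. piwi and aub, which bind piRNAs and silence transposons, followed at 11.49 ± 0.21 and 11.51 ± 0.22 (SD, n = 4). vas, the germline helicase commonly used as its marker, was the lowest member at 7.85, 7.59, 7.49 and 8.22, still above background in each array. The RNAs that define the female germline were thus measured in all 4 arrays. Bulk RNA cannot tell more cells of a type from more RNA in each cell.

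Genes that act in the stem cell and the early cyst were measured at lower signals. All 9 lay above background with a median of 9.17. bam, the switch that starts differentiation of the stem cell daughter, gave 8.67, 8.60, 8.36 and 8.55, a close set. Its partner bgcn gave 5.57, 6.15, 6.59 and 6.66, and tut, which acts with both, had a mean of 10.78. zpg, the germline gap junction protein, was highest of the group at 11.72 ± 0.23 (SD, n = 4). stwl, needed to maintain the stem cells, gave 6.96, 5.62, 7.19 and 6.93, with het 2 apart from the others.

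Of 15 meiosis genes 14 were above background, with a median of 7.40, close to that of all genes. mtrm (matrimony), the Polo kinase inhibitor that holds oocytes in meiosis, stood out in this group at 12.66, 12.63, 12.55 and 12.42. The synaptonemal complex genes c(3)G and c(2)M had means of 10.55 and 10.51, while cona, another component, gave 9.42, 9.87, 8.22 and 9.49. mei-P22 (5.75) and narya (5.59), both needed for early recombination, lay just above the level. Of the 15 only sub, a kinesin of the meiotic spindle, was near background, at 4.83.

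Genes that pattern the embryo or act after egg activation were all above background, at widely differing signals. osk, which builds the germ plasm at the posterior of the oocyte, was among the steadiest genes measured, with 13.56, 13.51, 13.55 and 13.53 (SD 0.02). bcd, the anterior determinant, was far weaker at 8.55, 6.88, 8.87 and 8.48. exu and BicD, which help to localise such messages, had means of 11.30 and 11.29, grk, the dorsal signal from the oocyte, one of 9.95. The lowest axis genes were pip, with a mean of 7.95, and tsl, with one of 6.99. The 10 probe sets of pip ran down to a mean of 3.27, below the level. By their highest probe sets none of the 15 axis genes was near background (30.2% of all named genes). Het 2 was the lowest array for 10 of the 15 (36.1%). Of 10 genes of egg activation, all above background, gnu led at 12.86, 12.89, 12.80 and 12.72. gnu and png (8.36) belong to the kinase complex that drives translation at the start of embryogenesis. smg, the repressor that clears maternal messages, had a mean of 11.93, and BigH1, the embryonic linker histone, one of 12.10. cort, the meiotic activator of the anaphase-promoting complex, gave 9.35, 7.68, 9.56 and 8.99. The cell cycle genes followed the same outline, with 14 of 14 above background, CycB highest at 13.06 and PCNA at 12.65, and with het 2 lowest for 11 of 14 (36.1% of all named genes).

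The 10 lamina and checkpoint genes that were measured all lay above background. baf, the chromatin protein that LEM domains bind, was highest at 13.16, 13.47, 12.86 and 13.06. MAN1 and bocks, the other LEM domain proteins of the lamina, had means of 11.06 ± 0.38 and 9.79 ± 0.25 (SD, n = 4). LBR, the lamin B receptor, gave 8.03, 6.77, 8.75 and 7.59. Among the damage response genes, grp (Chk1) had a mean of 12.12, p53 one of 9.77 and tefu (ATM) one of 9.39, while mei-41 (ATR) gave 5.75, 5.92, 6.70 and 6.13.

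Somatic genes of the ovary were less uniform. Of 11 follicle and niche genes 3 were near background, a share close to the 30.2% of all named genes, and their median of 6.79 lay below that of all genes. eya, a marker of follicle cell fate, had a mean of 9.94 ± 0.35 and br, a hormone-responsive regulator of late follicle cells, one of 9.99 ± 0.60 (SD, n = 4). The 5 probe sets of br ran down to a mean of 3.58. upd1, the ligand made by polar cells and by the testis hub, had a mean of 7.35. The 3 near background were slbo (4.43) and en (3.90), which mark border cells and the niche, and hh, the niche ligand, which straddled it at 4.93, 4.63, 5.45 and 5.22. tj, a gonad-specific somatic regulator named after its values were seen, gave 5.70, 5.05, 5.79 and 5.51. This marker of escort and follicle cells was thus close to the level, whereas eya and cas (6.79), on the same list, lay further above it. The signal of tj came from 1 probe set and gives no level for these cells.

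Most muscle genes gave high signals. All 10 were above background, with a median of 11.43. The lowest were sls and Obsc, with means of 7.10 and 6.90, under the median of 7.33 of all named genes. Both were lowest in het 1 and highest in het 4. TpnC73F, a troponin C, gave 12.76, 13.28, 12.53 and 12.79, and Mlc1, a myosin light chain, 12.51, 12.98, 11.89 and 12.36, in both cases highest in het 2 and lowest in het 3. Het 2 was the highest array for 6 of the 10 (36.7% of all named genes) and het 3 the lowest for 6 (32.4%). Act88F, the actin of indirect flight muscle, which is not an ovarian tissue, gave 6.97, 10.21, 7.24 and 9.53, high in het 2 and het 4. fln (flightin), another flight muscle protein named after its values were seen, was likewise highest in het 2 at 8.90 and was 5.02, 5.84 and 6.57 in het 1, het 3 and het 4. Of 9 basement membrane genes 6 were highest in het 3 (29.9% of all named genes), including the collagens Col4a1 (11.01, 11.05, 12.38 and 11.34) and vkg (10.31, 10.50, 11.61 and 10.67), and 7 were lowest in het 1 (14.0%).

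Markers of neighbouring tissues varied from group to group. All 6 fat body genes were above background, among them Fbp2 at 10.88, 11.38, 9.93 and 10.93. The larval storage protein Lsp2 gave 10.45, 10.19, 8.72 and 9.99. Het 3 was the lowest array for 5 of the 6 genes (32.4% of all named genes). The exception was Apoltp, lowest in het 1 at 6.46 and highest in het 4 at 7.52. Of 9 hemocyte genes 8 were above the level, but the group median was 6.63, and crq alone passed 10, at 10.80. Of 6 antimicrobial peptide genes 5 were above the level with a median of 6.40, and the highest, Drs (drosomycin), gave 11.05, 11.87, 11.08 and 11.13. Of 5 tracheal genes 4 were above the level with a median of 5.82, from obst-A at 3.49 to Gasp, a chitin-binding protein, at 9.57, 10.81, 8.82 and 10.16. Of 9 neuronal genes 3 were near background (30.2% of all named genes), namely Snap25 (4.24), ChAT (4.03) and VGlut (4.52), and the highest was elav, the pan-neuronal marker, with a mean of 7.18. How far such tissue contributed to the ovary signals was not tested.

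At the other end lay genes of sense organs, cuticle and the male. The lowest named gene was CG17177, at 2.50, 2.46, 2.49 and 2.51, and the 10 lowest ended at 2.75. They included Hdc, which makes the photoreceptor transmitter histamine, Lim3, a motor neuron factor, prt, a transporter of mushroom body neurons, and the odorant receptor Or85c. Cuticle protein genes of the Cpr family were near background in 49 of 79 (against 30.2% of all genes), although Cpr49Ae reached 10.13 ± 0.58 (SD, n = 4). Odorant-binding protein genes were near background in 23 of 47, although Obp99b, also made in fat body, reached 11.35. Of 81 cytochrome P450 genes 21 were near background, a share close to that of all genes, and Cyp4g1, which makes cuticular hydrocarbons, was highest at 11.55.

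Most testis genes were near background. Of 21 measured, 14 were near background (66.7%, against 30.2% of all named genes). Among these were the protamine gene ProtA (3.36), betaTub85D (4.40) and the meiotic arrest gene comr (3.46). The 7 above the level included Mst84Dc, a sperm tail protein, at 7.23, 8.32, 5.43 and 8.27. Het 2 was the highest array for 12 of the 21 and het 3 the lowest for 17, against 36.7% and 32.4% of all named genes. By kind of transcript, 51 of 77 long noncoding RNAs were near background and 3509 of 11796 protein-coding genes (29.7%). Of the X-linked genes 24.5% were near background, and of those on the 4 major autosomal arms between 29.9% and 31.8%.

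Most genes varied little among the 4 arrays. The median SD was 0.28 on the log2 scale, and it was largest in the middle of the range: 0.15 for genes near background, 0.38 for means between 8 and 11, and 0.11 for means above 13. An SD above 1 was found for 318 genes (2.65%), of which 1 had a mean above 11. The 50 most variable genes, chosen for their SD and therefore described without a test, ran from Sgs8 with an SD of 3.47 to Obp57a with one of 2.00, and CG13084, just outside, had one of 1.94. In 34 of the 50 at least 1 array was at or below the near-background level. They fell into few shapes. When each array was placed above or below the midpoint of its gene's range, 19 of the 50 were high in het 1 and het 3 (4.93% of all named genes had this shape), 15 in het 3 alone (7.78%) and 9 in het 1 alone (4.32%). Het 2 alone was high in 3 (12.2%). The highest array was het 3 for 29 of the 50 (29.9% of all genes), het 1 for 16 (14.8%), het 2 for 5 and het 4 for 0.

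**Figure D3:**
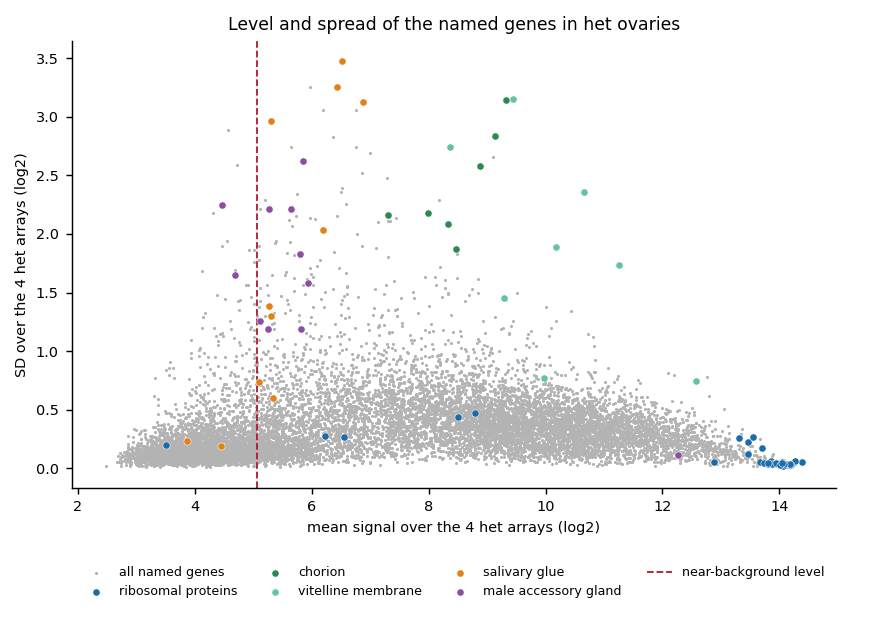
Mean (x axis) and SD (y axis) of the log2 signal over the 4 het arrays for 11982 named genes (grey) and 5 groups (colours), with the near-background level dashed. Most ribosomal protein genes sit at the lower right with an SD under 0.1, and all 7 chorion genes and most glue, accessory gland and vitelline membrane genes stand above the grey cloud.

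**Figure D4:**
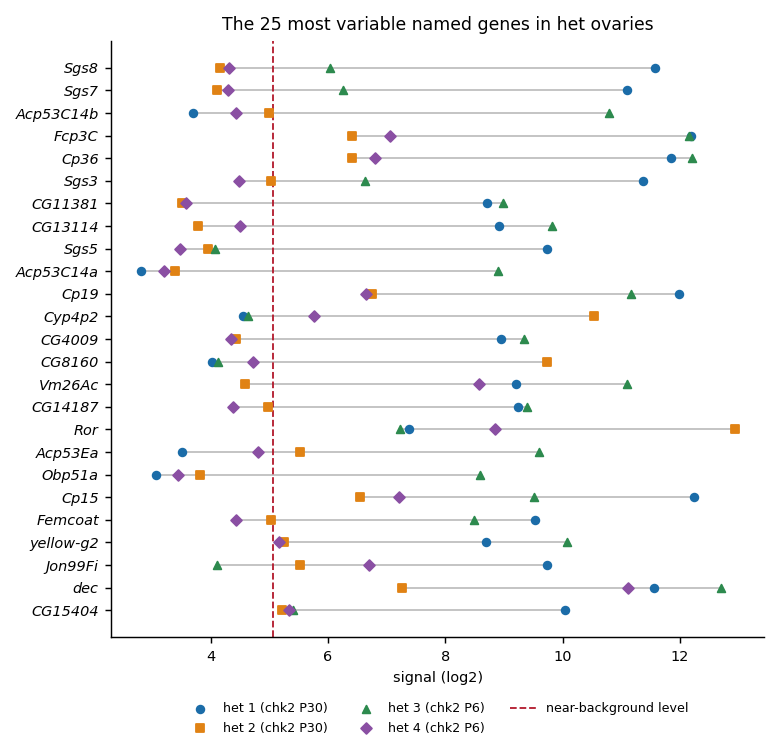
Log2 signal (x axis) of the 25 most variable named genes (rows, largest SD at the top) in each het array (coloured symbols), with the near-background level of 5.06 dashed. Chorion genes such as Cp36 pair het 1 with het 3, glue genes such as Sgs8 set het 1 apart, and Acp53C14b sets het 3 apart.

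The widest shared shape was that of the chorion. Cp36, a major chorion protein, gave 11.85 in het 1 and 12.21 in het 3, against 6.40 in het 2 and 6.81 in het 4 (9.32 ± 3.14, SD, n = 4). Cp19 gave 11.99, 6.76, 11.16 and 6.65, and Cp15, which is made at the very end of oogenesis, 12.24, 6.54, 9.51 and 7.21. All 7 chorion genes had het 1 and het 3 above het 2 and het 4 (14.9% of all named genes), and their mean was 10.51, 6.28, 10.50 and 6.66. Fcp3C, a follicle cell protein, followed them with 12.20, 6.40, 12.15 and 7.06. So did 12 further genes of the 19, among them yellow-g and yellow-g2, needed for a firm eggshell, and Femcoat. The pair that was high held an array of each chk2 allele, and so did the pair that was low. The chorion values therefore divided arrays labelled with the same genotype by as much as 5.70 (Cp15 in het 1 and het 2). Het 2 was also the array of low Ote, at 7.27 against 9.26 in het 1. Het 4, likewise low in chorion RNA, had an Ote signal of 9.29. In no array was a chorion gene near background.

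Vitelline membrane genes act earlier, and het 2 was the lowest array in each of them. Vm26Aa gave 11.71, 8.72, 12.63 and 11.97, and Vm34Ca 12.82, 11.51, 13.26 and 12.70. In these 2 genes het 4 lay close to het 1 and het 3, whereas in Fcp3C, on the same list, it lay close to het 2, and 4 of the 8 genes had het 1 and het 3 above het 2 and het 4 (14.9% of all named genes). Het 2 was the lowest array for 8 of 8 vitelline membrane genes (36.1% of all named genes) and het 3 the highest for 7 of 8, with group means of 10.79, 7.85, 11.99 and 10.24. Vm26Ac, the most variable of the Vm genes, gave 9.21, 4.58, 11.09 and 8.57, near background in het 2 only. dec, the defective chorion gene whose products line the inner eggshell, gave 11.55, 7.26, 12.70 and 11.11.

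The yolk genes, active from the start of yolk uptake, spread least of the 3 groups. Yp1 gave 12.93, 12.33, 13.23 and 13.12, Yp2 gave 13.06, 11.66, 13.47 and 12.87, and Yp3 gave 11.24, 10.01, 12.09 and 10.95. Together with yl (yolkless), the receptor by which the oocyte takes up yolk, at 10.49, 10.13, 12.02 and 10.68, they had het 2 lowest and het 3 highest in 4 of 4. The median SD was thus 0.80 for yolk, 1.81 for vitelline membrane and 2.18 for chorion genes, against 0.28 for all genes. With single arrays left out the mean of the vitelline membrane group, 10.22 over all 4, lay between 9.63 (without het 3) and 11.01 (without het 2). That of the chorion group, 8.49 over all 4, was 7.81 without het 1, 9.22 without het 2, 7.82 without het 3 and 9.10 without het 4. Among follicle genes outside the eggshell, EcR, the ecdysone receptor, gave 8.39, 7.04, 8.24 and 8.37, and br gave 10.06, 9.28, 10.73 and 9.88, both lowest in het 2. Yolk proteins are also made in fat body, and the part of that tissue in these values was not tested.

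**Figure D5:**
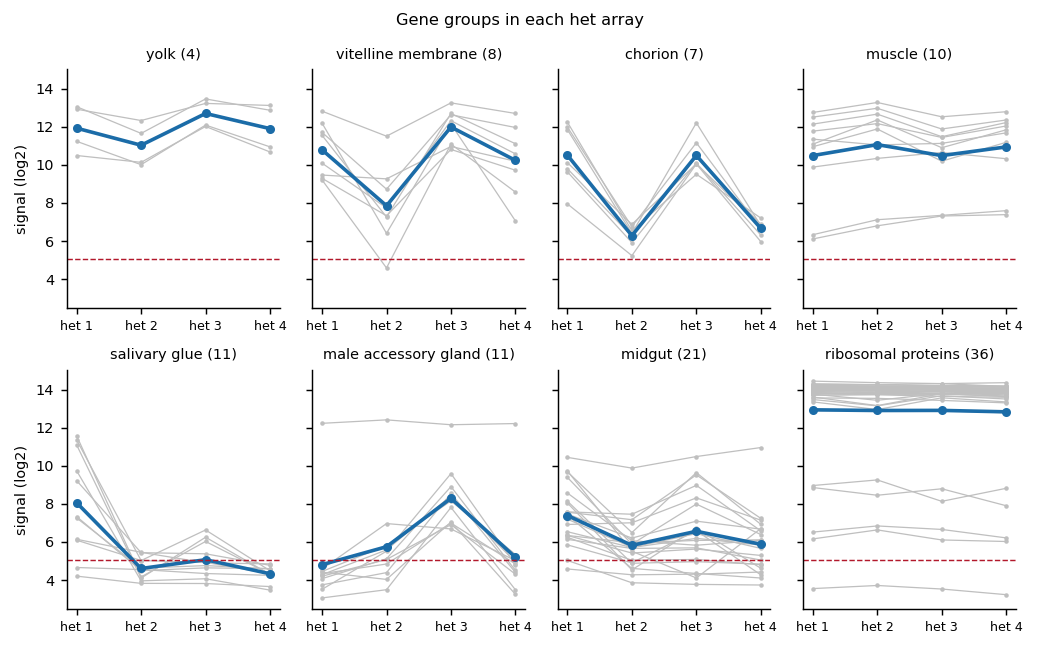
Log2 signal (y axis) of 8 gene groups in each het array (x axis). Each grey line joins the values of a gene, the blue line joins the group means, and the red dashed line is the near-background level; the arrays are replicates and have no order. Chorion means are 10.51, 6.28, 10.50 and 6.66, salivary glue stands out in het 1 at 8.06, accessory gland in het 3 at 8.30, and ribosomal proteins are level.

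The salivary glue genes were high in a single array. Glue proteins are made by the larval salivary gland and fix the pupa to its surface, and that gland is gone well before eclosion. Sgs8 gave 11.57 in het 1, against 4.16, 6.03 and 4.31 in het 2, het 3 and het 4. Sgs7 gave 11.10, 4.10, 6.25 and 4.30, and Sgs3 gave 11.36, 5.02, 6.63 and 4.49. In these 3 het 3 came second, above background but far below het 1. Sgs5 gave 9.74, 3.96, 4.07 and 3.47, near background in all but het 1. Het 1 was the highest array for 11 of 11 glue genes (14.8% of all named genes), and the group mean was 8.06, 4.60, 5.07 and 4.33. With all 4 arrays 2 of the 11 were near background, and without het 1 the number was 8.

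Digestive enzymes shared het 1 in part. Of 21 midgut genes 16 were highest in het 1 (14.8% of all named genes), with group means of 7.39, 5.82, 6.56 and 5.88. Jon99Fi, a serine protease, gave 9.73, 5.51, 4.11 and 6.70, and Jon65Aii 7.40, 4.61, 4.34 and 4.10. In 13 of the 21, however, het 1 and het 3 both lay above het 2 and het 4 (14.9% of all named genes). Jon65Aiii was among them and was as high in het 3 as in het 1, at 9.68, 6.49, 9.64 and 6.93. LManII, a lysosomal mannosidase found in many cells, was highest of the group at 10.45, 9.88, 10.49 and 10.96. CG15404, of unstated role here, followed the glue pattern closely at 10.03, 5.21, 5.40 and 5.34.

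Seminal fluid genes set het 3 apart. These proteins are made in the male accessory gland and passed to the female at mating. Acp53C14b gave 10.79 in het 3, against 3.69, 4.99 and 4.43 in het 1, het 2 and het 4. Acp26Aa (ovulin), which stimulates ovulation in mated females, gave 4.07, 5.12, 8.91 and 4.50. SP, the sex peptide, gave 4.33, 4.84, 6.99 and 4.84, and both genes were named after their values were seen. Het 3 was the highest array for 9 of 11 genes (29.9% of all named genes), and the group mean was 4.81, 5.75, 8.30 and 5.19. Acp62F, a protease inhibitor, had het 2 second at 4.45, 5.82, 8.16 and 5.34. With all 4 arrays 2 of the 11 were near background, and without het 3 the number was 8.

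The other 2 members, Acp29AB and Acp95EF, were highest in het 2. Acp29AB, named after its values were seen, gave 4.57, 6.97, 6.68 and 5.02. Acp95EF gave 12.23, 12.42, 12.16 and 12.22, a high and even signal in every array. Genes beyond the list went with het 3 as well and were named after their values were seen. They included Dup99B and Anp, both of the male ejaculatory duct, at 9.04 and 8.74 in het 3 with no other array above 5.50. Mst57Da, an accessory gland transcript, reached 9.53. Obp51a gave 3.07, 3.82, 8.59 and 3.43. Whether male or larval tissue was present in single preparations was not tested.

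Het 2 had its own, smaller set. Cyp4p2, a cytochrome P450, gave 4.54, 10.53, 4.63 and 5.76. CG8160 gave 4.02, 9.73, 4.12 and 4.71, and Ror, a receptor tyrosine kinase known from neurons, gave 7.38, 12.93, 7.23 and 8.85. In all 3 genes het 4, of the other chk2 allele, came second. CG34217, named after its values were seen, was high in both at 6.22, 10.55, 6.21 and 9.72.

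The only contrast within the het ovaries that the labels offer is that of the chk2 alleles, P6 (het 3 and het 4) against P30 (het 1 and het 2). It was fitted with limma across all 18769 probe sets, with the thresholds of the study, namely p under 0.05 before adjustment and at least a 2-fold difference. A probe set was called in 170 cases (0.906%), 104 of them higher in P6 (0.554%) and 66 lower (0.352%). None passed a Benjamini-Hochberg adjusted p under 0.05 in limma, where the lowest adjusted p was 0.603, or in the same fit without moderation, and 1210 probe sets (6.45%) had an unadjusted p under 0.05. With 2 arrays an arm, these p-values measure the spread between these arrays, and the allele cannot be told apart from any other difference between the stocks. The split by direction turned with the scaling. It was 134 higher and 52 lower after centring the arrays on their medians, and 52 higher and 103 lower after cyclic loess.

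The 84 genes called higher in P6 were led by Mical, an actin-oxidising enzyme, with 7.38 and 6.51 in P30 and 9.07 and 7.93 in P6, a difference of 1.56 ± 0.52 (SE, limma adjusted p = 0.603). Neurl4 gave 7.07 and 6.44 in P30 and 8.48 and 8.10 in P6, a difference of 1.53 ± 0.29 (SE, limma adjusted p = 0.603). MED14, a Mediator subunit, and Tnks (tankyrase) followed with differences of 1.51 and 1.46, and Rfx came next. The 54 genes called lower in P6 were led by CG31809, with 5.75 and 8.01 in P30 and 3.66 and 4.90 in P6, a difference of -2.60 ± 0.91 (SE, limma adjusted p = 0.603). TotC, a stress-induced secreted protein, gave 9.48 and 10.05 in P30 and 8.49 and 5.92 in P6. Scp1, a calcium-binding protein, TpnC41C, a muscle troponin C, and ninaD, a carotenoid receptor, differed by -2.48, -2.44 and -2.32. Of these 10 genes only Neurl4 met the thresholds whichever array was left out. The call count was 1418 without het 1, 281 without het 2, 79 without het 3 and 777 without het 4. lok itself averaged close values in both arms, at 11.41 and 11.13 in P30 and 11.47 and 11.42 in P6.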

How the data were processed

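Ovary RNA of 4 het samples was read on 1 array each. The deposited values were log2 signals per probe set, which the authors had made with RMA (Affymetrix Expression Console 1.4.1 per the submitters' processing notes, Transcriptome Analysis Console per the methods), and they ran from 2.46 to 14.45. No further normalization was applied. The 183 spike and control probe sets were left out. Probe sets were named through GEO's platform annotation, and of the 13647 with a single gene 13544 were updated to current symbols by gene ID, 6 by symbol, and 97 kept their old name. Each gene was described by its probe set of highest het mean, as mean and SD over the 4 arrays. The near-background level was the 95th percentile of 172 reference genes.

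The difference between the P6 and P30 arms came from limma (version 3.58.1, under R 4.3.3), as linear fits with empirical Bayes moderation and Benjamini-Hochberg adjustment over 18769 probe sets. This script was tested on simulated data. Other steps used Python 3.11.15 with pandas 2.3.3. Arrays give no depth, and their number limits the precision. Named genes were the 25 highest, the 25 of largest SD, the 10 lowest, Ote and lok, and per gene group the 3 highest, the 3 lowest and the most variable or, for groups of 10 or fewer, every member, with the 5 largest P6 to P30 differences each way. Other genes, among them tj, upd1, piwi, aub, grk, yellow-g, RpS5b, Acp26Aa and SP, were named after their values were seen. The members and gene lists were chosen with earlier results of these data known, and 3 lists were corrected after the symbols were seen. Other levels, ranks, scalings and left-out arrays were tried as alternatives. No comparison of null with het was made.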

Additional observations from a re-analysis of the deposited data

Results flagged for a closer look

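Of 171 genes singled out by name, 12 had an array whose gap to the nearest of the other 3 exceeded Dixon's 95% critical share of the gene's range for 4 samples. Chance alone marks about 1 in 20 such sets, and genes of large SD were picked for their spread, so these are values to look at and no more. Het 2 was the array apart in 5 of them. It was low for Ote at 7.27, where the others lay between 9.26 and 9.66, for stwl at 5.62 (others 6.94 to 7.19) and for EcR at 7.04 (others 8.24 to 8.39). It was high for CG8160 at 9.73 (others 4.02 to 4.71) and for Drs at 11.87 (others 11.05 to 11.13). Het 1 was high for Sgs5 at 9.74 (others 3.47 to 4.07), for CG15404 at 10.03 (others 5.21 to 5.40) and for Jon65Aii at 7.40 (others 4.10 to 4.61). Het 3 was high for Obp51a at 8.59 (others 3.07 to 3.82) and for Anp at 8.74 (others 4.08 to 4.81), and low for His2Av at 13.14 (others 13.41 to 13.45). Het 4 was low for Or85c at 2.52 (others 2.77 to 2.79), a gene near background in every array.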

How the results depend on the processing

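The count of genes near background was 3623, and between 3579 and 3912 with single arrays left out; it was 1899 with the highest Y-linked gene as the level. The 30 ribosomal protein genes among the 100 highest stayed at 30 under both other scalings and with any array left out, and became 27 when a gene was the median of its probe sets; 26 were among the 50 highest and 31 among the 200 highest. At least 92 of the 100 genes were shared under the alternatives that kept a list of 100. Of the 50 most variable genes 16 were highest in het 1. That count was 10 among the 25 and 36 among the 100 most variable, and between 15 and 40 with an array left out, the highest without het 3. It cannot be had without het 1. For het 3 the count was 29, then 12 among the 25 and 48 among the 100, and between 30 and 43 with an array left out. The number called in P6 minus P30 was 170. It was 802 at a fold of 1.5, 25 without moderation, 0 after adjustment, and between 79 and 1418 with an array left out, where the lone array of an arm is assumed to vary like the other arm; the cause was not tested. Of 2338 alternative means of single genes, 3 moved by at least their SD, all among the 334 under cyclic loess. With 4 arrays, leaving out an array, taking the median or centring cannot move a mean that far. Those settings therefore tested nothing for single genes. No paired analysis was possible because the P30 arrays are replicates 1 and 2 and the P6 arrays replicates 3 and 4, so that the arms share no replicate number, and the other results come from no test. Precision is limited by 4 arrays, by bright probe sets that name no single gene, and by signals near background.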
